A study of Mus musculus with 42 samples.

Results

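The comparison set lung mesenchymal cells kept for 5 days on a stiff gel of 32 kPa against the same kind of cells lysed directly after sorting, called sham. It used 6 RNA libraries, 3 per group, of the 42 samples of the series, chosen by the label of each library. All cells came from CD1 mice with a Col1a1-GFP reporter, in which GFP marks cells that use the promoter of a fibrillar collagen gene, and each group was sorted as positive for GFP and negative for CD45 (leukocytes), EpCAM (epithelium) and CD31 (endothelium). Lungs were digested for 45 min, and the cultured cells then grew in DMEM with 10% serum on collagen-coated silicone of 32 kPa. The labels do not say whether replicates were separate animals or cultures. The p-values rest on the spread of these libraries and of 3 CD1 libraries on a soft gel of 0.2 kPa, which shared the fit. That spread may be technical. They also do not say whether the cultured cells were sorted again. Time in culture, serum, growth on a flat gel and stiffness all separate the 32 kPa cells from sham and cannot be told apart in this comparison. In these bulk samples, fewer cells of a type and less RNA per cell cannot be told apart either.

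Lung fibroblasts lay down and renew the collagen, elastic and proteoglycan matrix of the lung, and in the healthy adult lung they divide rarely. Several kinds are distinguished in the tissue: alveolar fibroblasts near the gas-exchange surface, adventitial fibroblasts around larger vessels and airways, and contractile cells such as smooth muscle and pericytes. On stiff substrates with serum, fibroblasts are known to spread, to build actin stress fibres and to divide, and the coactivators YAP and TAZ and the AP-1 transcription factors are known mediators of such changes.

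Promoter stretches are shown for genes that stand for 4 of the groups described below. They are taken from RefSeq on GRCm38.p6, the assembly that mm10 is made from, within the 250 bases before and 50 after the annotated start. All are written 5′ to 3′ on the strand of the gene, and capitals mark the motif on either strand. For mitosis, the motif is the cell cycle genes homology region, TTTGAA, to which the repressor complex of resting cells is known to bind. The Ube2c stretch is chr2:164769829-164769928, plus strand, and the Cdc20 stretch is chr4:118437344-118437443, minus strand.
Ube2c: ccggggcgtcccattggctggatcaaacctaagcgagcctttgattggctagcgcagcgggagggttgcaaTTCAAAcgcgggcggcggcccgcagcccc
Cdc20: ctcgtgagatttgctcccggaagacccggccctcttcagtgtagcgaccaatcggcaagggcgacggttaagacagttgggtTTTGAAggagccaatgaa
For the interferon response, the motif is the core of the interferon-stimulated response element, GAAA, any 2 bases and GAAA again, and the capitals of overlapping matches run together. The Isg15 stretch is chr4:156200845-156200944, minus strand, and the Ifit3 stretch is chr19:34583347-34583446, plus strand.
Isg15: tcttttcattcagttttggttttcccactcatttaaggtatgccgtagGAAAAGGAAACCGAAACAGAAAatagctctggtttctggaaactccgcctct
Ifit3: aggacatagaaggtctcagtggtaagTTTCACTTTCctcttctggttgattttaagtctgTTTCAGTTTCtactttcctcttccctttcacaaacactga
For amino acid supply, the motif is the core of the amino acid response element, TGATGNAA, bound by ATF4 and its partners. The Asns stretch is chr6:7693210-7693309, minus strand, and the Chac1 stretch is chr2:119350992-119351086, plus strand.
Asns: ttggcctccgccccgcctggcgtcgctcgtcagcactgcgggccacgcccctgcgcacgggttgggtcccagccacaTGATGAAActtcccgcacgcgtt
Chac1: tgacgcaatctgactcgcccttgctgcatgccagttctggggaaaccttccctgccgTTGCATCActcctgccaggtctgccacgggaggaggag
For promoters that were more accessible on the gel, the motif is the AP-1 site, TGANTCA. The Serpinb2 stretch is chr1:107511266-107511365, plus strand, and the Mmp10 stretch is chr9:7502216-7502315, plus strand.
Serpinb2: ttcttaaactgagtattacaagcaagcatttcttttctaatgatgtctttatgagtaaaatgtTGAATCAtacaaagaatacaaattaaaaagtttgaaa
Mmp10: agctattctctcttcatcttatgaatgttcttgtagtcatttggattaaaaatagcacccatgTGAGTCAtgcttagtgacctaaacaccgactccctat

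The 6 libraries held 35858180 to 69524944 recovered reads, and 32 kPa replicate 3 was the deepest of its group with 68929926. Levels are given as CPM, recovered reads per 1000000 reads of named genes, with replicates always listed in the order 1, 2, 3, and means are over n = 3. Distances between libraries were the median absolute log2 difference over 15335 genes with a mean of at least 10. Replicate 3 lay at 0.337 and 0.349 from 32 kPa replicates 1 and 2, which were 0.163 apart. It lay at 0.138 and 0.140 from 0.2 kPa replicates 1 and 2, cells on a soft gel that shared the fit but were not compared with sham here. Fewer genes were detected in 32 kPa replicates 1 and 2 (16394 and 16311) than in replicate 3 (17872) and in sham (18561 to 18797). Sham replicate 2 also stood apart, at 0.306 and 0.277 from sham replicates 1 and 3. Its summed level of 12 smooth muscle markers was 638 CPM against 3265 and 3766 in the others, while its summed level of 18 epithelial markers was 434 CPM against 168 and 215. Every 32 kPa library lay at a distance of at least 1.05 from every sham library, as the map of distances between libraries shows.

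**Figure D1:**
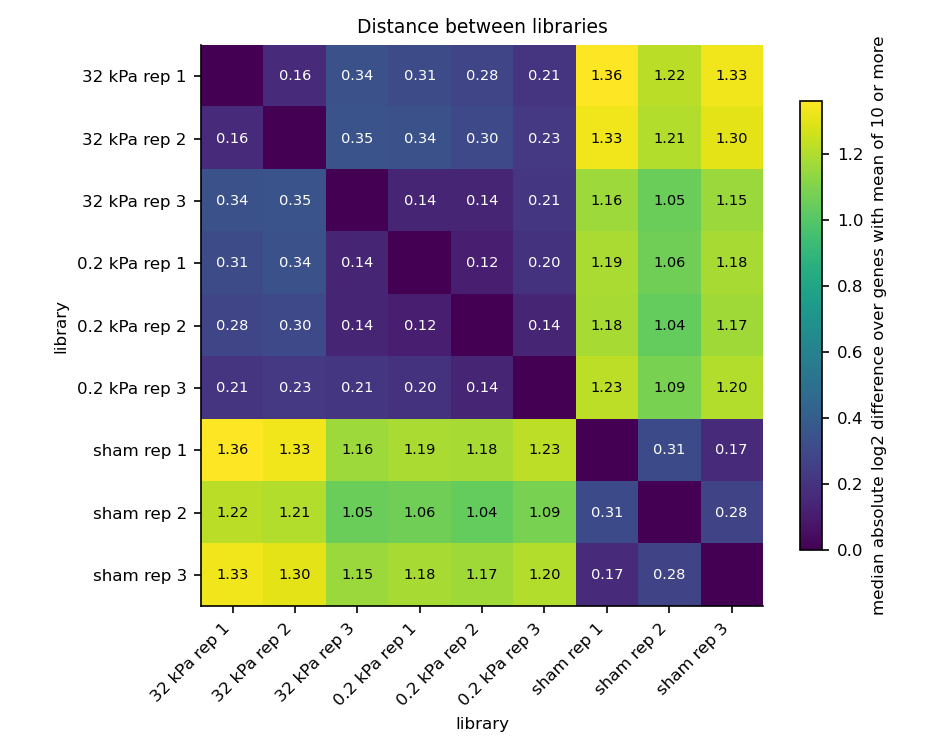
Median absolute log2 difference between each pair of the 9 CD1 RNA libraries, over 15335 genes with a mean of at least 10; darker cells are closer pairs. The sham libraries lie at 1.04 or more from every gel library, and 32 kPa replicate 3 lies at 0.14 from 0.2 kPa replicates 1 and 2 but at 0.34 and 0.35 from its own group.

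Culture changed most of the measured transcriptome. Of 18480 genes tested with limma, 5983 (32.4%) were higher on 32 kPa and 7580 (41.0%) were lower at an adjusted p under 0.05. Every count of list members given below is to be read beside these shares. With a fold change of at least 2 (log2 of at least 1) required as well, 4138 (22.4%) were higher and 5986 (32.4%) lower. The largest falls outnumbered the largest rises: 915 genes fell and 198 rose by at least 5 on the log2 scale. The median of all tested genes was -0.26 on the log2 scale, -0.13 with libraries scaled by total reads and -0.34 with values as deposited, and changes are to be read against that shift. The 3 values of one group lay wholly outside those of the other for 73.1% of tested genes. The test and this count used values rescaled between libraries, so that for small differences they need not match the order of the printed CPM. Of the 13563 called genes, 11896 stayed called whichever of the 6 libraries was left out, and without 32 kPa replicate 3 the counts were 6080 higher and 7612 lower of 18532.

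The genes that rose most came from unlike families. Prl2c2, which encodes the prolactin-like growth factor proliferin, stood at 299, 223 and 235 CPM on 32 kPa and at 0.0705, 0.0886 and 0.0327 CPM in sham, a log2 difference of 11.49 ± 0.24 (SE), adjusted p = 6.94e-11. Its relative Prl2c3 stood at 125, 95.4 and 113 CPM against 0.0176, 0.0148 and 0.0327 (11.30 ± 0.19 (SE), adjusted p = 2.17e-11). Both were near 0 in every fresh library and high in every cultured one, and all 4 tested members of the Prl2c family rose. Reads of Prl2c genes, like those of Gsta1 and Gsta2 below, can be split among near-identical copies, so the level of a single copy is uncertain.

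Hmga2, an architectural chromatin protein of embryonic and dividing cells, stood at 759, 753 and 847 CPM against 0.934, 0.576 and 0.688 (9.93 ± 0.14 (SE), adjusted p = 1.57e-11). The glutathione transferase Gsta1 had no read in any sham library and stood at 50, 58.9 and 45.5 CPM on the gel, at least 3147-fold higher against a floor of 3 reads over the sham group. Gsta2 went from 0.0882, 0.0591 and 0.0819 to 123, 118 and 106 CPM (10.13 ± 0.15 (SE), adjusted p = 1.77e-11). The xenobiotic-metabolising enzyme Cyp1a1, a target of the aryl hydrocarbon receptor, reached 43.2, 36.5 and 53.3 CPM against 0.141, 0.0443 and 0.0327 (8.96 ± 0.35 (SE), adjusted p = 3.38e-09).

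Cck, which encodes the peptide hormone cholecystokinin, rose from 2 reads over the sham group to 31, 45.3 and 24.2 CPM, a ratio of 3023 with a 95% counting interval of 837 to 24972. Grem1, an antagonist of bone morphogenetic proteins, stood at 18.7, 18.9 and 57.2 CPM against 0.176, 0 and 0.0491 (8.62 ± 0.69 (SE), adjusted p = 8.28e-07), with replicate 3 well above replicates 1 and 2 and near the 0.2 kPa mean of 63.6 CPM. Serpinb2, an inhibitor of plasminogen activators, stood at 41.5, 25.2 and 41 against 0.0882, 0.0443 and 0.0819 CPM (8.50 ± 0.26 (SE), adjusted p = 6.83e-10), and Pkp1, a desmosomal plaque protein, at 86.3, 78.1 and 99.2 against 0.141, 0.443 and 0.18 (8.35 ± 0.32 (SE), adjusted p = 2.61e-09). Crct1 and Tmem59l completed the 12, with means of 15.8 and 43.7 CPM on the gel. The 2 groups did not overlap for any of the 12, which the choice of genes required.

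**Figure D2:**
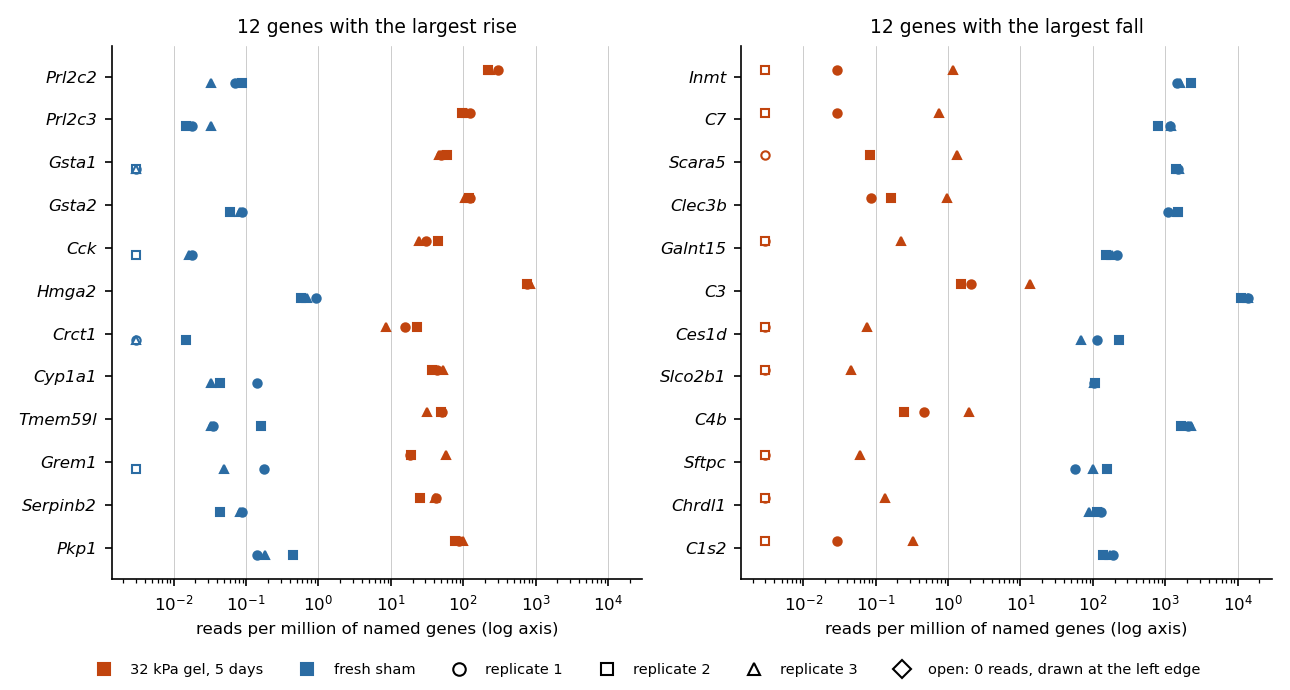
Levels (CPM, log axis) of the 12 genes with the largest rise and the 12 with the largest fall, one symbol per library; open symbols at the left edge had no read. In the right panel 32 kPa replicate 3 (triangles) stood above replicates 1 and 2, for example 13.4 CPM of C3 against 2.10 and 1.48. It was far below every sham library, and the source of these reads was not tested.

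Among the 12 genes that fell most were markers of resident fibroblasts and complement genes. Inmt, a methyltransferase of alveolar fibroblasts, stood at 1469, 2250.5 and 1587 CPM in sham and at 0.0291, 0 and 1.18 CPM on the gel (-14.10 ± 1.12 (SE), adjusted p = 7.69e-07). Scara5, a scavenger receptor of adventitial fibroblasts, went from 1479, 1429 and 1539 to 0, 0.0825 and 1.35 CPM (-13.47 ± 1.09 (SE), adjusted p = 8.78e-07), and Clec3b, which encodes tetranectin, from 1087, 1513 and 1445 to 0.0874, 0.165 and 0.957 CPM (-12.40 ± 0.81 (SE), adjusted p = 1.56e-07). In all 12 genes, 32 kPa replicate 3 had the highest level of its group, far below the lowest sham library. The source of these few reads was not tested. Sftpc, a surfactant protein of alveolar epithelium and not a fibroblast gene, fell from 56.5, 156 and 98.9 CPM to 4 reads over the group, with sham replicate 2 the highest.

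The complement genes C7 (1149.6, 782 and 1184 to 0.0291, 0 and 0.748 CPM), C3, C4b and C1s2 were among the same 12. C3, the central component of the cascade, had 13792, 10960.0 and 13852 CPM in sham and 2.1, 1.48 and 13.4 CPM on 32 kPa (-11.96 ± 0.60 (SE), adjusted p = 2.23e-08). Ces1d, a carboxylesterase, fell from 136 to 0.0249 CPM, and Slco2b1, an organic anion transporter, from 105 CPM to 3 reads over the group. The ratio of sham to gel for Slco2b1 was 5244, with a 95% counting interval of 1794 to 25432. Galnt15 and Chrdl1 were the remaining members, with 184 and 111 CPM in sham and 0.0748 and 0.0449 CPM on the gel.

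Markers of the resident fibroblast kinds were lost together. All 18 adventitial markers were lower (median -7.52 on the log2 scale), as were 18 of 20 alveolar markers (median -5.37) and 10 of 11 markers of peribronchial fibroblasts and myofibroblasts (median -4.22), where 41.0% of all tested genes were lower with a median of -0.26. Pi16, a marker of adventitial fibroblasts, went from 2225, 2509 and 2822 to 0.991, 0.763 and 2.92 CPM (-11.01 ± 0.38 (SE), adjusted p = 1.35e-09). Scn7a, a sodium channel of alveolar fibroblasts, went from 673 to 0.875 CPM. The alveolar markers that did not pass were Npnt (151, 109 and 345 against 169.6, 132 and 200.0 CPM), which encodes the basement membrane protein nephronectin, and Wnt2 (11.6, 10.9 and 9.23 against 12.3, 9.72 and 12.5). For both the groups overlapped, and Npnt was highest in 32 kPa replicate 3.

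The general mesenchyme markers moved in both directions, 7 of 10 lower and 2 higher. The gene of the reporter, Col1a1, stood at 1654, 1714 and 1501 CPM on 32 kPa and 5549, 5948 and 8935 CPM in sham (-2.16 ± 0.21 (SE), adjusted p = 3.64e-06), so it fell but stayed abundant. Pdgfra, the platelet-derived growth factor receptor of lung fibroblasts, went from 1418, 1382 and 1193 to 247, 243 and 341 CPM (-2.40 ± 0.13 (SE), adjusted p = 4.55e-08). Vim, the intermediate filament protein of mesenchyme, rose to 8569, 8219.9 and 7713 CPM from 2067, 2537 and 2199 (1.73 ± 0.16 (SE), adjusted p = 2.57e-06), and S100a4, a calcium-binding protein of motile cells, rose from 62.8 to 1311 CPM. Thy1, a surface glycoprotein of fibroblasts, did not pass the test (162 against 165 CPM).

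Markers of other cell types were lower on the gel in most cases. The summed level of 24 leukocyte markers was 15.7 to 16.3 CPM on 32 kPa and 137 to 276 CPM in sham, that of 18 epithelial markers 5.04 to 5.73 against 168 to 434 CPM, and that of 5 red cell markers 0.268 to 0.379 against 5.75 to 38.9 CPM. The sums of 16 endothelial markers (114 to 134 against 393 to 408 CPM) and of 11 mesothelial markers (95.1 to 109 against 153 to 307 CPM) stood closer together in the 2 groups. Of the endothelial markers 14 fell and 1 rose, and of the mesothelial markers 9 fell and 1 was called higher, a call lost without either 32 kPa replicate 2 or 3 or either sham replicate 1 or 3. The genes of the sorting markers were at 1.81, 1.73 and 2.99 CPM on 32 kPa and 5.25, 10.5 and 9.66 in sham for Ptprc (CD45), at 0.612, 0.289 and 0.479 and 14.5, 16.1 and 16 for Pecam1 (CD31), and at 0, 0 and 0.0898 and 0.458, 1.39 and 0.868 for Epcam. All 3 were low in both groups and lower on the gel. No read of the epithelial keratin Krt8 or of the endothelial genes Cldn5 and Car4 was found in any 32 kPa library, against 1.16, 2.46 and 2.7 CPM in sham. Cd74, the invariant chain of antigen-presenting cells, had 3 reads over the 32 kPa group and 26.3, 69.8 and 40.6 CPM in sham. The part of these cells in the falls of immune and epithelial genes was not tested.

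Contractile cell markers did not move as 1 group. Of 12 smooth muscle markers 9 fell and 2 rose, and of 12 pericyte markers 10 fell and 1 rose. Myh11, smooth muscle myosin, fell from 967, 101 and 1069.7 to 1.75, 3.22 and 5.36 CPM (-7.36 ± 0.75 (SE), adjusted p = 5.31e-06), and Abcc9, a potassium channel subunit of pericytes, from 585 to 1.96 CPM. Acta2, smooth muscle actin, rose instead, at 3010.2, 2965 and 2411 CPM against 1234, 279 and 1487 (1.67 ± 0.49 (SE), adjusted p = 0.00953), as did Tagln, an actin-binding protein, at 1895, 1799 and 1803 against 507, 127 and 571 CPM (2.33 ± 0.44 (SE), adjusted p = 5.94e-04). In Myh11, Acta2 and Tagln, sham replicate 2 was the lowest sham library by a wide margin, in step with its low smooth muscle sum, and the 2 groups did not overlap. The pericyte marker that rose was Cspg4, the proteoglycan NG2 (138 against 49.5 CPM, adjusted p = 0.00399).

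Collagens and their partners were mostly lower, most so outside the main fibril types. Of 10 fibrillar collagens 7 fell and 1 rose (median -2.47), and of 12 fibril-associated and beaded collagens 10 fell and 1 rose (median -6.95). Col3a1, the collagen that mixes with type I in soft tissue, fell from 19607, 18473 and 26112 to 201, 220.5 and 275 CPM (-6.65 ± 0.15 (SE), adjusted p = 1.02e-10), a larger step than those of the type I chains Col1a1 above and Col1a2 (9325, 9359 and 12980.1 to 2157, 2254 and 2462 CPM, -2.31 ± 0.17 (SE), adjusted p = 3.41e-07). Col5a2, which helps to start fibrils, was the fibrillar collagen called higher (1868, 2302 and 2894 against 1653, 1316 and 1847 CPM, 0.42 ± 0.17 (SE), adjusted p = 0.0464), with the lowest gel library next to the highest sham library. The call was lost without 32 kPa replicate 2 (adjusted p = 0.0851) or 3 (0.142) and without sham replicate 1 (0.0845) or 2 (0.148). Col2a1 and Col11a1 did not pass and were at 3.11 and 5.93 CPM on the gel.

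Among the fibril-associated collagens, Col14a1 stood at 4302, 3177 and 4498 CPM in sham and at 10.9, 11.2 and 23.2 CPM on the gel (-8.25 ± 0.26 (SE), adjusted p = 6.83e-10). Col6a1, a chain of the beaded filaments around cells, fell from 2438, 2638 and 2866 to 21.1, 23.6 and 27.6 CPM (-6.91 ± 0.13 (SE), adjusted p = 3.66e-11). Col6a5 fell from 63.5 CPM to 1 read over the group. Col12a1, which rose in contrast, stood at 174, 182 and 269 against 127, 116 and 81.1 CPM (0.82 ± 0.18 (SE), adjusted p = 0.00174), and Col8a1 did not pass (174 against 132 CPM).

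Of the enzymes that process collagen 5 of 20 were higher and 12 lower, against 32.4% and 41.0% of all tested genes. Lox, which cross-links collagen and elastin, rose to 1701, 1303 and 2395 CPM from 231, 238 and 186 (2.88 ± 0.19 (SE), adjusted p = 1.85e-07). Plod2, Plod3, Fkbp10 and Loxl3 also rose, by at most 0.81 on the log2 scale. Adamts2, which trims the procollagen N-terminus, fell from 847, 777 and 1065 to 31.3, 31.4 and 36.1 CPM (-4.88 ± 0.13 (SE), adjusted p = 2.09e-10), and Loxl2 from 408 to 58.1 CPM. Serpinh1, the collagen chaperone of the endoplasmic reticulum (992 against 1147 CPM), P4hb (1244 against 976 CPM) and P4ha3 (17.6 against 12.3 CPM) did not pass, although Serpinh1 passed without sham replicate 1 (adjusted p = 0.0119), P4hb without sham replicate 2 (0.0482) and P4ha3 without 32 kPa replicate 2 (0.0232).

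No basement membrane gene rose, and 19 of 23 fell. Col15a1 went from 1765, 1495 and 2212 to 78.5, 89.7 and 101 CPM (-4.46 ± 0.14 (SE), adjusted p = 7.07e-10), and Lamc1, the most widely used laminin gamma chain, from 2048, 1729.6 and 1923 to 198, 208 and 259 CPM (-3.23 ± 0.11 (SE), adjusted p = 1.16e-09). Col4a1, a main type IV collagen chain, fell much less, from 1379, 1105 and 1646 to 941, 998 and 1142 CPM (-0.53 ± 0.15 (SE), adjusted p = 0.0078), and its partner Col4a2 did not pass (656 against 617 CPM). Lama1 and Npnt also did not pass, with means of 0.307 and 202 CPM on the gel. Without 32 kPa replicate 3, Npnt had an adjusted p of 0.0472.

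Small leucine-rich proteoglycans, which bind collagen fibrils and set their width, were lower in 9 of 10 cases, with a median of -7.42. Dcn, decorin, stood at 13147, 16189 and 10829.5 CPM in sham and at 73.7, 69 and 89.6 CPM on the gel (-7.55 ± 0.15 (SE), adjusted p = 4.20e-11), and Lum, lumican, at 2215, 2505 and 1729 and 14.9, 15.5 and 15.9 CPM (-7.23 ± 0.13 (SE), adjusted p = 2.90e-11). Bgn, biglycan, of the same family, stood at 6869, 6683 and 5999.9 CPM on 32 kPa and 6825, 7259 and 6730.5 CPM in sham (-0.22 ± 0.16 (SE), adjusted p = 0.242). Bgn was thus the member that did not pass, and its libraries lay close together in both groups.

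Elastic fibre genes fell in 13 of 17 cases and rose in 3, against 41.0% and 32.4% of all tested genes. Fbn1, fibrillin 1, fell from 4509, 3299 and 5228 to 552, 565 and 809.7 CPM (-2.88 ± 0.18 (SE), adjusted p = 1.35e-07), Ltbp4 from 4662 to 43.8 CPM, and Mfap4 from 1499 to 6.68 CPM. Ltbp2 rose, at 443, 469 and 559.8 against 63, 45.6 and 83.9 CPM (2.85 ± 0.18 (SE), adjusted p = 1.49e-07), and Fbln2 and Efemp2 rose by 0.60 and 0.66 on the log2 scale.

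Among 19 matricellular proteins and hyaluronan genes, 6 rose and 12 fell, against 32.4% and 41.0% of all tested genes. The share that rose was thus near that of all tested genes. Tnc, tenascin C of healing and developing tissue, reached 305, 301 and 575 CPM against 45.2, 36.3 and 39.3 (3.10 ± 0.20 (SE), adjusted p = 1.54e-07), and Thbs1, thrombospondin 1, 2459, 2569 and 4532 against 806, 592 and 879.9 CPM (1.91 ± 0.23 (SE), adjusted p = 1.80e-05). For both, replicate 3 was the highest gel library by a wide margin. Cd44, the hyaluronan receptor, rose from 115 to 867 CPM. Fn1, fibronectin, fell from 5069, 4811 and 5410.5 to 2429, 2599 and 3577 CPM (-0.97 ± 0.16 (SE), adjusted p = 2.00e-04), Sparc from 6638 to 2636 CPM, and its relative Sparcl1 from 2049, 1770.1 and 2025 to 0.874, 0.495 and 2.41 CPM (-10.99 ± 0.43 (SE), adjusted p = 3.04e-09). Postn, periostin, fell from 699 to 264 CPM.

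**Figure D3:**
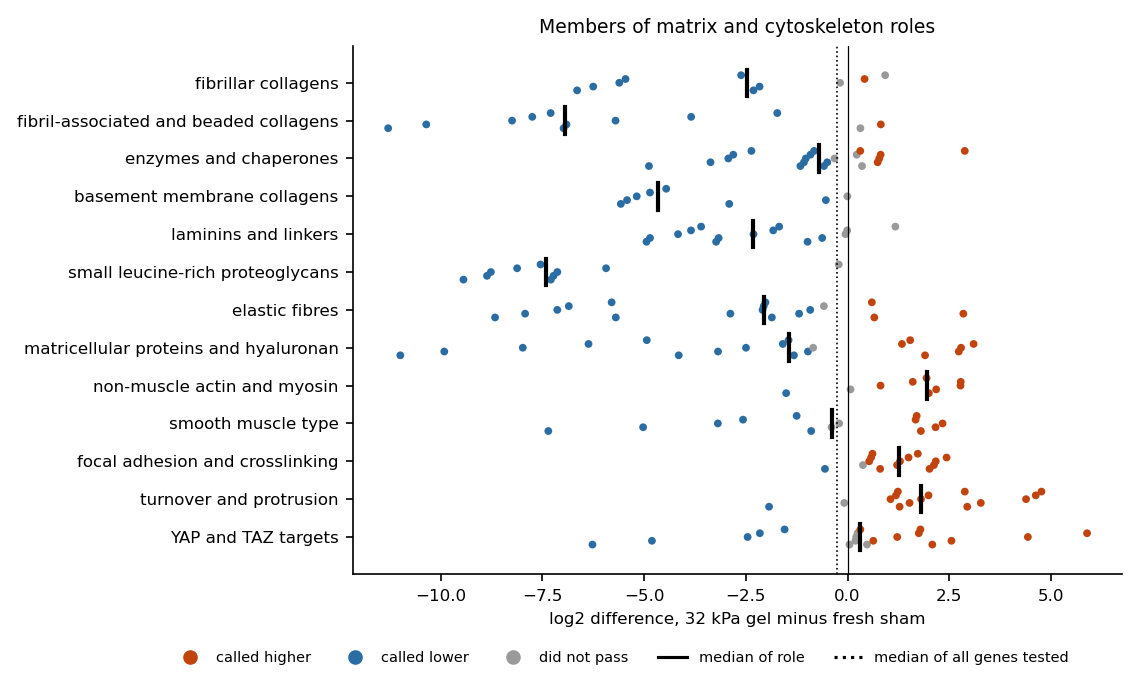
Log2 difference (32 kPa minus sham) of every tested member of 13 roles, coloured by call, with the median of each role as a bar and the median of all tested genes (-0.26) as a dotted line. Small leucine-rich proteoglycans and fibril-associated collagens centre at -7.42 and -6.95, whereas non-muscle actin and myosin, focal adhesion, and actin turnover roles centre above 0.

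Of 35 tested genes of matrix proteolysis 26 fell and 7 rose, against 41.0% and 32.4% of all tested genes. Mmp2, a gelatinase of resting fibroblasts, fell from 2477, 2545 and 2501 to 41.9, 45.7 and 53.3 CPM (-5.87 ± 0.09 (SE), adjusted p = 2.04e-11), while the collagenase Mmp13 rose to 31.4, 29.3 and 62.7 CPM from 0.441, 0.0295 and 0.377 (7.42 ± 0.68 (SE), adjusted p = 2.53e-06) and the stromelysin Mmp10 to 27.5, 23.3 and 35.6 from 0.3, 0.177 and 0.115 CPM (adjusted p = 4.05e-09). Plaur, the receptor of urokinase, rose from 17.2 to 556 CPM, while Plat, the tissue plasminogen activator, fell from 401 to 5.12 CPM. The inhibitors of metalloproteinases went separate ways: Timp1 rose to 4245, 3976 and 3125 CPM from 90, 80 and 103 (5.25 ± 0.15 (SE), adjusted p = 4.62e-10), and Timp3 fell to 999, 1023 and 1243 from 6464, 5098 and 6237 (-2.57 ± 0.14 (SE), adjusted p = 3.47e-08). Adam12, of dividing and myogenic mesenchyme, rose from 7.03 to 131 CPM, and Adamts15 fell from 115 to 0.104 CPM.

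The actin cytoskeleton rose as a list, with 37 of 51 members higher and 9 lower (median 1.50). Actb, cytoplasmic actin, stood at 11278, 10219 and 7677 CPM against 1081, 1532 and 1264 (2.78 ± 0.21 (SE), adjusted p = 4.84e-07), and Myh9, the heavy chain of non-muscle myosin, at 1349, 1649 and 1564 against 216, 153 and 251 CPM (2.78 ± 0.18 (SE), adjusted p = 1.45e-07). Of the actin turnover and protrusion role 13 of 15 rose, including Fscn1, the bundling protein fascin (766 against 26 CPM), Pfn1, profilin (1434 against 129 CPM), and Cfl1, cofilin (2496 against 295 CPM). In the focal adhesion role 12 of 14 rose, including Actn1 (1036 against 185 CPM) and Zyx (1185 against 326 CPM), while Pxn, paxillin, fell (77.3 against 104 CPM) and Flna, filamin A, did not pass (2557 against 2019 CPM). The members against the majority were Myh10 (167 against 435 CPM) and Diaph1 (30.1 against 90.9 CPM), whereas its relative Diaph3, which acts in dividing cells, rose (49.9 against 1.84 CPM).

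In the role of smooth muscle type genes 5 of 13 were higher and 6 lower, near the shares over all tested genes (32.4% and 41.0%). Acta2, Tagln, Tpm1 (1183 against 248 CPM), Tpm2 (513 against 150.5 CPM) and Cald1 (1529 against 435 CPM) rose. Myh11, Synpo2 (1.81 against 64.2 CPM), Lmod1 (7.82 against 72.5 CPM), Des, desmin (11.3 against 70.2 CPM), Cnn1 (21.6 against 60.9 CPM, adjusted p = 0.0494) and Myl9 (146 against 273 CPM) fell. Sham replicate 2 was the lowest sham library in each of these 6 genes. The adjusted p of Cnn1 missed the threshold under 12 of 20 alternative settings, and was 0.104, 0.0965 and 0.0646 without 32 kPa replicates 1, 2 and 3 and 0.197 and 0.214 without sham replicates 1 and 3. That of Myl9 was 0.0656 and 0.0603 without 32 kPa replicates 1 and 2 and 0.104 and 0.114 without sham replicates 1 and 3. Among filaments and lamins, Nes, the intermediate filament nestin, rose from 46.1 to 739 CPM and the B-type lamin Lmnb1 from 13.1 to 103 CPM. Of the proteins that couple the nucleus to the cytoskeleton, Sun1 fell from 142 to 37.3 and Syne1 from 131 to 22.7 CPM.

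Integrins, the receptors that hold cells to the matrix, were lower for 12 of 17 chains, against 41.0% of all tested genes. Itga5, the fibronectin receptor alpha chain, rose to 868, 813 and 1161 CPM from 159.6, 111 and 186 (2.53 ± 0.18 (SE), adjusted p = 3.31e-07), and its beta partner Itgb1 to 1978, 1886 and 2606 from 1011, 812 and 899.8 CPM (1.11 ± 0.14 (SE), adjusted p = 3.50e-05). Itgav and Itga6 rose by 0.72 and 1.14 on the log2 scale. The call of Itga6 was lost without 32 kPa replicate 1 (adjusted p = 0.0701) or 3 (0.122) and without sham replicate 1 (0.0677) or 2 (0.156). Itga8, of alveolar fibroblasts and smooth muscle, fell to 2.71, 2.33 and 4.83 from 459.6, 192 and 427 CPM (-6.86 ± 0.34 (SE), adjusted p = 2.00e-08), and the collagen-binding chains Itga1 (3 against 34.8 CPM) and Itga11 (16.5 against 175 CPM) fell as well.

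Targets of YAP and TAZ did not rise as 1 block. Of 19 targets 9 rose, 5 fell and 5 did not pass, with a median of 0.31, and of 14 regulators 8 rose and 4 fell. Among all tested genes 32.4% rose and 41.0% fell, with a median of -0.26. Ankrd1, a muscle ankyrin protein, rose to 429, 465 and 547 CPM from 10.2, 4.53 and 8.73 (5.89 ± 0.24 (SE), adjusted p = 3.95e-09). Ctgf, connective tissue growth factor, stood at 2959.6, 2728 and 3023 CPM against 1294, 1046 and 1098 (1.22 ± 0.13 (SE), adjusted p = 6.19e-06), whereas Cyr61 stood at 1458, 1409 and 1329.8 against 1174, 1362 and 1194 CPM (0.05 ± 0.12 (SE), adjusted p = 0.736). The widely used reporters of the pathway gave a large, a smaller and no called difference. Ajuba rose from 4.34 to 103 CPM, and Nt5e and Igfbp3, also listed as targets, fell from 17.6 to 0.221 and from 274 to 10.3 CPM. The DNA-binding partners Tead1 (346 against 113 CPM), Tead2 (79.3 against 16.7 CPM) and Tead4 (6.61 against 0.168 CPM) rose, and Wwtr1, which encodes TAZ, fell slightly (134 against 164 CPM, adjusted p = 0.00244).

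Genes of DNA replication and mitosis rose without exception. All 36 replication genes (median 2.42), all 46 mitosis genes (median 5.36) and all 21 genes of nucleotide synthesis (median 2.19) were higher on 32 kPa, where 32.4% of all tested genes were. Cdk1, the kinase that starts mitosis, stood at 189, 185 and 167 CPM against 0.652, 1.17 and 1.16 (7.40 ± 0.20 (SE), adjusted p = 2.87e-10), its partner Ccnb1 at 159.7, 132 and 159 against 0.705, 0.945 and 1.02 CPM (7.25 ± 0.15 (SE), adjusted p = 6.94e-11), and the chromokinesin Kif4 at 64.7, 64.3 and 89.3 against 0.282, 0.399 and 0.655 CPM (7.23 ± 0.25 (SE), adjusted p = 1.55e-09). Every sham library was near or below 1 CPM for these genes, and every gel library was far above.

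Among the replication factors, Mcm10 reached 27.3, 22.3 and 31.3 CPM from 0.335, 0.236 and 0.229 (6.44 ± 0.19 (SE), adjusted p = 5.05e-10) and Mcm5, of the replicative helicase, 146, 132 and 154 from 5.31, 6.22 and 6.73 CPM (4.44 ± 0.11 (SE), adjusted p = 1.55e-10). The smallest change of the list was 0.87 on the log2 scale. Rrm2, the ribonucleotide reductase subunit made for S phase, stood at 327, 266 and 357 against 6.65, 5.89 and 7.04 CPM (5.46 ± 0.12 (SE), adjusted p = 6.94e-11), and Top2a, the topoisomerase of dividing cells, at 179.7, 191 and 253 against 4, 3.25 and 6.24 CPM (5.44 ± 0.21 (SE), adjusted p = 2.96e-09). The survivin gene Birc5 rose from 0.752 to 107 CPM, and Ube2c and Cdc20, whose promoters are shown above, from 1.2 to 115 and from 2.01 to 122 CPM.

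The regulators of the cycle were mixed. Of 12 cyclins and kinases 11 rose and Cdk6 did not pass (3.24 against 2.49 CPM). Ccnd1, the cyclin that mitogens induce, stood at 347, 339 and 340.5 CPM against 12, 12 and 13.8 (4.64 ± 0.09 (SE), adjusted p = 5.30e-11). Of the inhibitors and pocket proteins 6 of 10 rose and 4 fell, the latter near the 41.0% of all tested genes (32.4% rose). Cdkn1c, the inhibitor p57, fell from 18, 29.8 and 17.1 to 0.583, 0.351 and 0.479 CPM (-5.56 ± 0.33 (SE), adjusted p = 7.56e-08), and Rbl2, the pocket protein of resting cells, from 111, 95.8 and 98.5 to 7.99, 8.7 and 12.3 CPM (-3.54 ± 0.14 (SE), adjusted p = 3.64e-09). Cdkn1a, the p53 target p21, rose from 147, 117 and 134 to 289, 287 and 251 CPM (0.93 ± 0.11 (SE), adjusted p = 2.47e-05), and Cdkn2a from 0.0676 to 4.24 CPM. The transcription factors Foxm1 (109 against 4.37 CPM), Mybl2 (24.1 against 0.72 CPM) and E2f7 (30.4 against 0.424 CPM) rose, and Foxo1 (19.1 against 118 CPM) and Foxo3 (4.21 against 18.7 CPM) fell. Myc rose by 0.74 ± 0.11 (SE) on the log2 scale.

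The motif TTTGAA was found on either strand in 29 of 40 promoters of mitosis genes (72.5%) within 250 bases before and 50 after the start, and in 15.1% of all 13723 promoters of tested genes. The CCAAT box was in 70.0% of the mitosis promoters and in 42.0% of all. The E2F-type site TTCCCGC was in 12 of 28 replication promoters (42.9%) and in 8.63% of all. These are matches of letters, not measured binding.

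Biosynthesis genes rose with the cycle. Of 26 genes of ribosome assembly and RNA polymerase I, 25 rose and Ubtf did not pass (124 against 125 CPM). Npm1, nucleophosmin, stood at 1566, 1608 and 1788 CPM against 204, 198 and 171 (2.99 ± 0.11 (SE), adjusted p = 2.46e-09), Ncl, nucleolin, rose from 295 to 1663 CPM, and Nhp2 from 9.3 to 156 CPM. All 12 aminoacyl transfer RNA synthetases were higher, with a median of 1.37.

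Amino acid supply rose in large part. Of 9 genes of serine, proline and asparagine synthesis 8 rose: Asns, asparagine synthetase, stood at 197, 173 and 188 CPM against 3.63, 5.86 and 4.09 (5.25 ± 0.16 (SE), adjusted p = 5.77e-10), Psat1 at 344, 337 and 316 against 10.5, 12.1 and 12 CPM (4.72 ± 0.10 (SE), adjusted p = 6.62e-11), and Phgdh, the first enzyme of serine synthesis, rose from 25.3 to 385 CPM. Pycr1, of proline synthesis, fell (5.67 against 14.8 CPM). The transporters Slc7a5 (272 against 17.2 CPM), Slc7a11 (261 against 23.9 CPM) and Slc3a2 (389 against 75.3 CPM) rose, Slc1a5 fell (111 against 167 CPM), and Slc38a2 and Slc1a4 did not pass (429 against 452 CPM; 52.3 against 46 CPM).

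Of 10 stress factors that also answer to ATF4, 3 were higher and 1 lower, but 6 were higher without 32 kPa replicate 3 and 6 with scaling by total reads. Among all tested genes 32.4% were higher and 41.0% lower. Chac1, which degrades glutathione, went from 0.159, 0.31 and 0.0982 to 16.9, 17.3 and 13.8 CPM (6.26 ± 0.34 (SE), adjusted p = 4.27e-08), while Atf4 itself (332, 318 and 289 against 317, 357 and 341 CPM) and Ddit3 (38.6, 41.6 and 29.5 against 25, 28.7 and 26.3 CPM) did not pass. Atf3 fell from 326, 312 and 337 to 4.52, 4.45 and 5.31 CPM (-6.21 ± 0.12 (SE), adjusted p = 4.20e-11). The motif TGATGNAA was in 12 of 31 promoters of the amino acid list (38.7%) and in 3.02% of all.

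Ribosomal protein genes and genes of oxidative phosphorylation were higher too, but they are short, and the difference between culture and sham ran with transcript length. Of 84 ribosomal protein genes 83 rose (median 1.83) and Rpl3l, with no read on the gel, fell from 0.353, 0.0738 and 0.557 CPM. Of 91 genes of oxidative phosphorylation 77 rose and 8 fell (median 1.43). The median longest transcript was 1076.5 bases in the first list and 1082 in the second. Over 12173 genes with a mean of at least 100, the median log2 difference was 1.49 for the 541 genes with transcripts under 1000 bases, of which 74.9% rose, and -0.87 for the 725 genes of 8000 bases or more, of which 16.8% rose. For the 1880 genes of 1000 to 2000 bases, which hold the median length of both lists, the median was 0.76 and 57.9% rose.

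The same gradient separated libraries within a group. From transcripts under 1000 bases to those of 8000 or more, the median difference between 32 kPa replicate 3 and replicates 1 and 2 ran from -0.57 to 0.31, and that between sham replicate 2 and replicates 1 and 3 from 0.47 to -0.40. Between 32 kPa replicate 3 and sham replicates 1 and 3 it ran from 1.21 to -0.78, and between 32 kPa replicates 1 and 2 and sham replicate 2 from 1.31 to -0.68. Of genes with transcripts of 4000 to 8000 bases 50.3% were lower against sham, and of those of 8000 or more 63.9%. Lists that mostly fell had long transcripts, with medians of 6450 (basement membrane), 5106 (fibril-forming matrix), 5044 (integrins) and 4704 bases (receptors). The YAP and TAZ list, with more rises than falls, had 4427, and the chromatin and oncofetal list, likewise, 4345. The part of length in the results for short or long genes was not tested. For example, the ribosomal protein gene Rplp2 stood at 885, 1018 and 391 CPM on 32 kPa, with replicate 3 lowest, and at 59.3, 112 and 73.1 CPM in sham, with replicate 2 highest (3.04 ± 0.36 (SE), adjusted p = 2.04e-05). The longer Rpl4 stood at 1844, 1609 and 2031 against 856, 978 and 820.2 CPM (0.92 ± 0.13 (SE), adjusted p = 5.87e-05), with replicate 3 highest. Ribosomal protein genes also have many processed copies, among which reads can be split.

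**Figure D4:**
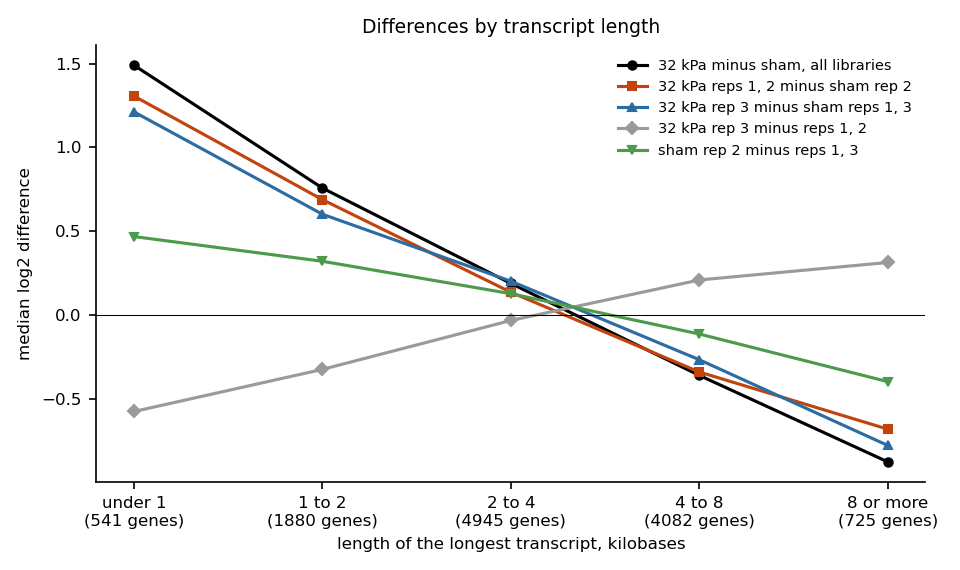
Median log2 difference by class of longest transcript for 5 pairs of library sets, over 12173 genes with a mean of at least 100. The 3 lines for 32 kPa against sham fall with length, from 1.49, 1.31 and 1.21 to -0.87, -0.68 and -0.78, while differences within a group run from -0.57 to 0.31 (32 kPa replicate 3) and from 0.47 to -0.40 (sham replicate 2).

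Targets of NRF2, a factor that responds to oxidants and electrophiles, and other antioxidant genes were taken as 1 role. It rose in 20 of 24 cases and fell in 2 (median 1.86). Nqo1, a quinone reductase, stood at 536, 470.1 and 447 CPM against 4.76, 4.84 and 4.83 (6.52 ± 0.11 (SE), adjusted p = 2.09e-11), and Hmox1, haem oxygenase, at 2405, 2408 and 1742 against 23.1, 22.5 and 24.1 CPM (6.41 ± 0.15 (SE), adjusted p = 1.07e-10). Txnrd1, thioredoxin reductase, rose from 66 to 1158 CPM and Gclm, of glutathione synthesis, from 15.8 to 371 CPM. Nfe2l2, which encodes NRF2, did not pass (139 against 149.8 CPM), nor did Cat, catalase (120.3 against 114 CPM). Nfe2l2 was called lower without 32 kPa replicate 3 (adjusted p = 0.0308) or sham replicate 3 (0.0332). The members that fell were the secreted enzymes Sod3 (864, 977 and 885 to 18.2, 23.6 and 13.6 CPM, -5.78 ± 0.19 (SE), adjusted p = 9.74e-10) and Gpx3 (636 to 25 CPM).

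Of 16 glutathione transferases 6 were higher and 8 lower, near the shares over all tested genes (32.4% and 41.0%). Gsta1, Gsta2, Gsta4 (446 against 14.9 CPM) and Gsto1 (588 against 7.12 CPM) rose, whereas Gstm1 (123 against 745 CPM), Gstm2 (102 against 220.5 CPM) and Gstt1 (3.12 against 97.3 CPM) fell. The antioxidant response element core TGACNNNGC was in 13 of 34 promoters of the glutathione and NRF2 list (38.2%) and in 16.4% of all.

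Retinoid and detoxification genes fell in 26 of 35 cases. Fmo2, a flavin monooxygenase of lung, fell from 745 to 1.28 CPM, Adh1, of retinol oxidation, from 234, 332 and 213 to 6.53, 9.86 and 6.37 CPM (-5.22 ± 0.20 (SE), adjusted p = 3.00e-09), and Rbp4, the retinol carrier, from 99 to 3.22 CPM. Fkbp5, a glucocorticoid target, rose (71.9 against 32.1 CPM), and Cyp1b1 did not pass (210.3 against 227 CPM, but adjusted p = 0.0245 without sham replicate 3). Rdh10 (17.8 against 14.7 CPM) and Rara (31.7 against 28.2 CPM), which make and sense retinoic acid, did not pass either.

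Sterol and fatty acid synthesis rose in 17 of 25 cases and fell in 4, or 2 with scaling by total reads, with a median of 1.09 (all tested genes: 32.4% higher and 41.0% lower). Msmo1 (148 against 22.7 CPM), Cyp51 (132 against 22.7 CPM) and Sqle (69.6 against 12.5 CPM), all of cholesterol synthesis, rose. Neither Srebf1 nor Srebf2, the factors that control the pathway, passed (57.4 against 68.4 CPM; 87.8 against 92.3 CPM), but Srebf1 was called lower without 32 kPa replicate 2 (adjusted p = 0.0467) or sham replicate 1 (0.0338). Of the lipid storage and uptake genes 12 of 20 fell and 5 rose. Apoe, apolipoprotein E, fell from 1134 to 4.55 CPM (-8.06 ± 0.27 (SE), adjusted p = 1.05e-09), and Lpl, lipoprotein lipase, from 563 to 98.8 CPM, while the lipid droplet protein Plin2 rose from 49.1 to 262 CPM.

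Glycolysis genes rose in 13 of 22 cases and fell in 5. Eno1, enolase, stood at 1704, 1606 and 1407 CPM against 73, 81 and 78.4 (4.21 ± 0.12 (SE), adjusted p = 4.75e-10), Pkm, pyruvate kinase, at 2495, 2456 and 2411 against 221, 243 and 236 CPM (3.27 ± 0.11 (SE), adjusted p = 1.10e-09), and the glucose transporter Slc2a1 rose from 16 to 143 CPM. Reads of Gapdh can be shared with its many processed copies, and its level (38.1, 59.2 and 10.6 CPM on 32 kPa) is uncertain. Hypoxia response genes, with 4 of 13 higher and 6 lower, were near the shares over all tested genes (32.4% and 41.0%): Epas1, the HIF-2 alpha subunit, fell from 69.6 to 8.04 CPM, and Hif1a (127 against 91 CPM) and Adm (136 against 116 CPM) did not pass. Hif1a passed without 32 kPa replicate 2 (adjusted p = 0.0138) and Adm without sham replicate 2 (0.0346).

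Of 64 growth factor ligands and binding proteins 38 fell and 22 rose, against 41.0% lower and 32.4% higher among all tested genes, and the role of epidermal growth factor ligands and neurotrophins was the one with more rises, 7 of 11. Bdnf, a neurotrophin, stood at 221, 217 and 252 against 4.95, 3.5 and 3.21 CPM (5.78 ± 0.14 (SE), adjusted p = 1.33e-10). Ereg, epiregulin, rose to 191, 201 and 229 CPM from 6.35, 5.23 and 4.57 (5.14 ± 0.12 (SE), adjusted p = 1.26e-10). In the other direction Ptn, pleiotrophin, fell from 24.5 to 0.0543 CPM.

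In the TGF-beta family 13 of 19 ligands and antagonists fell and 5 rose, against 41.0% and 32.4% of all tested genes. Gdf10 fell from 506, 469.6 and 454 to 0.146, 0.103 and 0.583 CPM (-11.13 ± 0.49 (SE), adjusted p = 7.97e-09), and Bmp4 and Bmp5 from 83.1 to 6.45 and from 58.2 to 1.86 CPM. Tgfb1 rose to 87.1, 77.5 and 55.4 from 18.1, 19.7 and 18.7 CPM (1.81 ± 0.19 (SE), adjusted p = 7.16e-06) and Tgfb2 fell (16.9 against 85.1 CPM). Inhba, the activin A subunit, was called higher (2.33 ± 0.53 (SE), adjusted p = 0.00207), but its level was carried by replicate 3, with 24.4, 26.5 and 128 CPM on 32 kPa against 10.5, 5.02 and 9.35 in sham.

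The insulin-like growth factor system fell in 9 of 10 cases. Igfbp5 went from 2555, 1479 and 2438 to 2.13, 3.11 and 5.31 CPM (-9.44 ± 0.32 (SE), adjusted p = 1.10e-09) and Igfbp4 from 2259.6 to 38.7 CPM, whereas Igfbp2 rose to 58.5, 91.7 and 45.3 from 0.635, 2.23 and 0.786 CPM (5.76 ± 0.41 (SE), adjusted p = 3.42e-07). Csf1, the growth factor of macrophages, rose to 3701, 3662 and 4315 CPM from 280.1, 322 and 285 (3.59 ± 0.12 (SE), adjusted p = 1.02e-09), with no overlap. Cxcl12, a chemokine of stromal niches, fell from 397 to 45.6 CPM. Angpt1, which stabilises vessels, fell from 112 to 2.32 CPM.

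Receptors fell in 39 of 53 cases and rose in 9, against 41.0% and 32.4% of all tested genes. Ntrk2, the receptor of Bdnf, fell from 168, 168 and 140.1 to 0.117, 0.165 and 0.583 CPM (-9.44 ± 0.44 (SE), adjusted p = 1.14e-08), so that receptor and ligand moved in opposite directions. Tgfbr2 (59.6 against 731 CPM), Tgfbr3 (31.1 against 436 CPM), Ednra, an endothelin receptor (1.26 against 110.2 CPM), and Ptgfr, a prostaglandin receptor (0.481 against 126 CPM), fell. F2r, a thrombin receptor, rose to 824, 714 and 962 CPM from 264, 259 and 229 (1.60 ± 0.12 (SE), adjusted p = 3.89e-07), Bmpr1b to 25.5 from 2.55 CPM, and the collagen receptor Ddr1 to 89.2 from 31.2 CPM, while its relative Ddr2 fell (191 against 886 CPM). Met, Erbb2 and Ror2 did not pass (28 against 23.2 CPM; 31.2 against 29.5 CPM; 15.7 against 15.2 CPM).

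Developmental pathways were lower on the gel. Hedgehog genes fell in 10 of 11 cases (median -5.06), WNT genes in 23 of 27 and Notch genes in 10 of 13. Gli1, the transcription factor and readout of Hedgehog signalling, fell from 136, 102 and 181 to 0.291, 0.515 and 0.479 CPM (-8.40 ± 0.36 (SE), adjusted p = 6.27e-09), and the receptor and target Ptch1 from 121, 64.9 and 155 to 1.02, 0.866 and 5.21 CPM (-6.11 ± 0.58 (SE), adjusted p = 3.17e-06). Gli3 did not pass (37 against 35.7 CPM). Heyl, a Notch target of mural cells, fell from 163 to 0.226 CPM and Notch3 from 70.5 to 0.877 CPM. Both were lowest in sham replicate 2 among the sham libraries, at 123 CPM of Heyl and 27.0 CPM of Notch3. The WNT inhibitors Sfrp1 (15.3 against 344 CPM), Sfrp4 (0.348 against 195 CPM) and Dkk3 (4.84 against 413 CPM) fell, and the WNT effector Lef1 was the member that rose (2.72 against 0.244 CPM).

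Complement genes fell in 14 of 15 cases, with a median of -7.49, and Cfd did not pass (0.0687 against 0.123 CPM, but adjusted p = 0.000769 without 32 kPa replicate 2). The sum over the list was 69.7 to 102 CPM on 32 kPa and 27383 to 31151 CPM in sham. Serping1, the inhibitor of the first component, went from 5912, 6635 and 5889.7 to 18.6, 16.4 and 19.6 CPM (-8.52 ± 0.10 (SE), adjusted p = 3.14e-12). Serpina3n, an acute phase protease inhibitor, went from 798, 779 and 892 to 8.66, 9.01 and 8.66 CPM (-6.67 ± 0.09 (SE), adjusted p = 1.57e-11).

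Chemokines and interleukins split, where 41.0% of all tested genes were lower and 32.4% higher. Of 13 chemokines 10 fell and 3 rose: Ccl11, eotaxin, fell from 269 to 0.255 CPM and Cxcl1 from 259, 239 and 197 to 2.21, 3.22 and 2.03 CPM (-6.67 ± 0.22 (SE), adjusted p = 1.15e-09), while the monocyte attractant Ccl2 rose to 192, 204 and 125 from 29.7, 28.5 and 23.9 CPM (2.52 ± 0.18 (SE), adjusted p = 3.42e-07). Of 14 interleukins and receptors 10 fell and 4 rose. Il11, a fibroblast cytokine of the Il6 family, rose to 170.4, 159 and 162 CPM from 1.73, 1.62 and 2.34 (6.31 ± 0.14 (SE), adjusted p = 7.28e-11), whereas Il6 fell from 109, 109.5 and 81.7 to 8.63, 6.82 and 6.57 CPM (-3.89 ± 0.17 (SE), adjusted p = 7.05e-09). Il33 fell from 297, 278 and 307 to 1.28, 1.73 and 2.44 CPM (-7.49 ± 0.22 (SE), adjusted p = 5.11e-10), and its receptor Il1rl1 rose to 96, 96.1 and 136 from 0.741, 0.62 and 0.262 CPM (7.59 ± 0.30 (SE), adjusted p = 3.52e-09). Ptgs2, cyclooxygenase 2, rose from 315 to 1365 CPM.

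All 33 interferon response genes were lower on the gel (median -3.63), and 32 of them without 32 kPa replicate 3 or with scaling by total reads. Irf7, the factor that amplifies the response, fell from 9.82, 9.86 and 10.2 to 0.408, 0.371 and 0.479 CPM (-4.64 ± 0.26 (SE), adjusted p = 5.01e-08). Ifit3 fell from 11.4, 12.1 and 12.1 to 1.08, 1.44 and 1.03 CPM (-3.44 ± 0.27 (SE), adjusted p = 7.24e-07) and Isg15 from 4.58, 6.04 and 5.94 to 1.31, 0.907 and 1.51 CPM (-2.28 ± 0.28 (SE), adjusted p = 2.73e-05), both low already in sham. Oas2 had no read on the gel, at least 121-fold lower against a floor of 3 reads over the group. The smallest fall was that of Ifitm2 (205 against 269 CPM, adjusted p = 0.0328), and its adjusted p was 0.093 without 32 kPa replicate 3, 0.134 without sham replicate 2 and 0.0513 without sham replicate 3. The core of the interferon-stimulated response element was in 15 of 25 promoters of the list (60.0%) and in 3.75% of all.

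Genes of the MHC class I pathway fell in 15 of 16 cases. The immunoproteasome subunit Psmb9 fell from 6.38, 8.86 and 7.56 to 0.117, 0.598 and 0.18 CPM (adjusted p = 5.91e-06). The class I heavy chain H2-K1 stood at 153, 178 and 86.6 CPM on 32 kPa and 179, 215 and 199 in sham (-0.69 ± 0.23 (SE), adjusted p = 0.0194), a small difference that was not called without sham replicate 2 (adjusted p = 0.0697) or 3 (0.0548), and reads of class I genes can be shared among relatives. B2m, the light chain, did not pass (554 against 562 CPM).

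Immediate-early genes, which respond within minutes to stimuli that include tissue digestion, were high in the freshly sorted cells. Of 23 genes 19 were lower on the gel, with a median of -3.44. Fos stood at 2605, 2988 and 2627 CPM in sham and 3.35, 3.2 and 5.45 CPM on 32 kPa (-9.58 ± 0.18 (SE), adjusted p = 3.99e-11), and Egr1 at 4720.2, 4579.6 and 4268 and 109, 129.9 and 111 CPM (-5.41 ± 0.11 (SE), adjusted p = 6.62e-11). The AP-1 member Fosl1 moved the other way, from 1.27, 1.34 and 1.78 to 262, 268 and 159 CPM (7.12 ± 0.23 (SE), adjusted p = 8.71e-10). The summed level of the 23 genes was 15503 to 16317 CPM in sham and 1300.4 to 1520.5 CPM in culture. The part of digestion and sorting in the sham levels was not tested.

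Heat shock genes rose in 10 of 13 cases. Cryab, a small heat shock protein, rose to 1394, 1513 and 970.2 from 70.8, 78.9 and 73.5 CPM (3.97 ± 0.17 (SE), adjusted p = 6.15e-09) and the mitochondrial chaperone Hspd1 to 860.0, 818 and 1144 from 134, 129 and 115 CPM (2.76 ± 0.13 (SE), adjusted p = 1.08e-08). The inducible Hspa1a (5.49 against 36.7 CPM) and Hspa1b (17.5 against 60.7 CPM), a near-identical pair, and Dnajb1 (77.7 against 107 CPM) fell.

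Clock genes fell in 15 of 20 cases and rose in 3, against 41.0% and 32.4% of all tested genes. The output factors Dbp (44.6, 33.8 and 45.5 to 3.82, 3.01 and 2.47 CPM, -3.86 ± 0.24 (SE), adjusted p = 1.05e-07) and Hlf (63.2 to 0.586 CPM) and the repressor Per1 (137, 81.2 and 148 to 12.7, 16.5 and 16.8 CPM, -3.08 ± 0.20 (SE), adjusted p = 1.76e-07) fell. Npas2, an activator, fell from 60.7 to 1.21 CPM, and Arntl, its partner, did not pass (48 against 42.8 CPM). The hour at which each sample was lysed is not given in the labels, and its part was not tested.

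Lineage factors of lung mesenchyme fell in 11 of 16 cases, against 41.0% of all tested genes. Tbx4, which marks lung mesenchyme in development, fell from 40.1, 56.7 and 44.7 to 4.17, 3.69 and 6.28 CPM (-3.46 ± 0.20 (SE), adjusted p = 7.35e-08), Tcf21 from 86.3, 114 and 93.2 to 17.1, 14.8 and 12.8 CPM (-2.84 ± 0.17 (SE), adjusted p = 7.91e-08) and Meox2 from 93.2 to 2.79 CPM. Foxf2 rose to 60.6, 68.4 and 41.4 from 6.98, 12.4 and 7.5 CPM (2.55 ± 0.24 (SE), adjusted p = 3.39e-06). Osr1, Nr2f1, Nr2f2 and Gata4 did not pass, with means of 119, 9.38, 119 and 16.9 CPM on the gel. Osr1 passed without sham replicate 1 (adjusted p = 0.0326), and Nr2f1 (0.0308) and Gata4 (0.00207) without sham replicate 2. Of 24 tested Hox genes 9 rose, a share near the 32.4% of all tested genes, and 3 fell: Hoxb8 went from 0.176, 0.295 and 0.213 to 7.72, 10.1 and 4.5 CPM (4.74 ± 0.34 (SE), adjusted p = 3.43e-07), Hoxb7 from 1.51 to 10.6 CPM, and Hoxa5, an identity gene of lung, was called higher by a small margin (39.2, 40.6 and 32.2 against 19.9, 30.2 and 20.4 CPM, adjusted p = 0.0119), but not without sham replicate 1 (0.0556) or 3 (0.0517).

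Among 24 mesenchymal transcription factors 10 rose and 7 fell, against 32.4% and 41.0% of all tested genes. Runx2, of bone-forming mesenchyme, rose to 40.4, 42.6 and 40.4 from 4.14, 3.31 and 3.55 CPM (3.36 ± 0.11 (SE), adjusted p = 1.22e-09) and Snai1 to 127, 133 and 64.8 from 11.4, 15.7 and 13.3 CPM (2.82 ± 0.29 (SE), adjusted p = 6.53e-06), while Zeb1 (67.6 against 174 CPM), Zeb2 (125 against 306 CPM) and Ebf2 (5.64 against 89.1 CPM) fell. Of 11 architectural and oncofetal genes 10 rose, with a median of 3.97. Besides Hmga2, Hmga1 rose from 1.5 to 164 CPM, Uhrf1, which guides maintenance of DNA methylation, from 3.24 to 136 CPM, and Igf2bp1 from 0.0443 to 3.91 CPM. Of 20 histone and DNA methylation genes 9 were higher and 10 lower, against 32.4% and 41.0% of all tested genes: Ezh2 rose (82.5 against 13.6 CPM) and its relative Ezh1 fell (15.6 against 78.6 CPM), as did Tet1 (1.07 against 17.7 CPM), Tet2 (6.29 against 47.4 CPM) and Cbx7 (4.49 against 33.6 CPM).

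Imprinted genes fell in 13 of 27 cases and rose in 5, against 41.0% and 32.4% of all tested genes, with Igf2 (0.84 against 65.9 CPM) and Peg3 (4.45 against 197 CPM) among the falls. Peg3 stood at 1.4, 1.9 and 10.1 CPM in the 32 kPa libraries, with replicate 3 highest. Of 20 p53 targets and senescence genes 11 rose and 4 fell, including Bax (221 against 24 CPM), Ccng1 (379 against 83.2 CPM) and Aen (75.7 against 10.8 CPM) upward and Sesn1 (8.27 against 77.4 CPM) downward. Genes of lysosomes fell in 16 of 21 cases and rose in 3. Chaperones of the endoplasmic reticulum fell in 12 of 19 cases, among them Hspa5 (2021, 2177 and 2018 to 944, 953 and 1217 CPM, -1.13 ± 0.12 (SE), adjusted p = 1.01e-05), and in 8 of 19 with scaling by total reads.

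**Figure D5:**
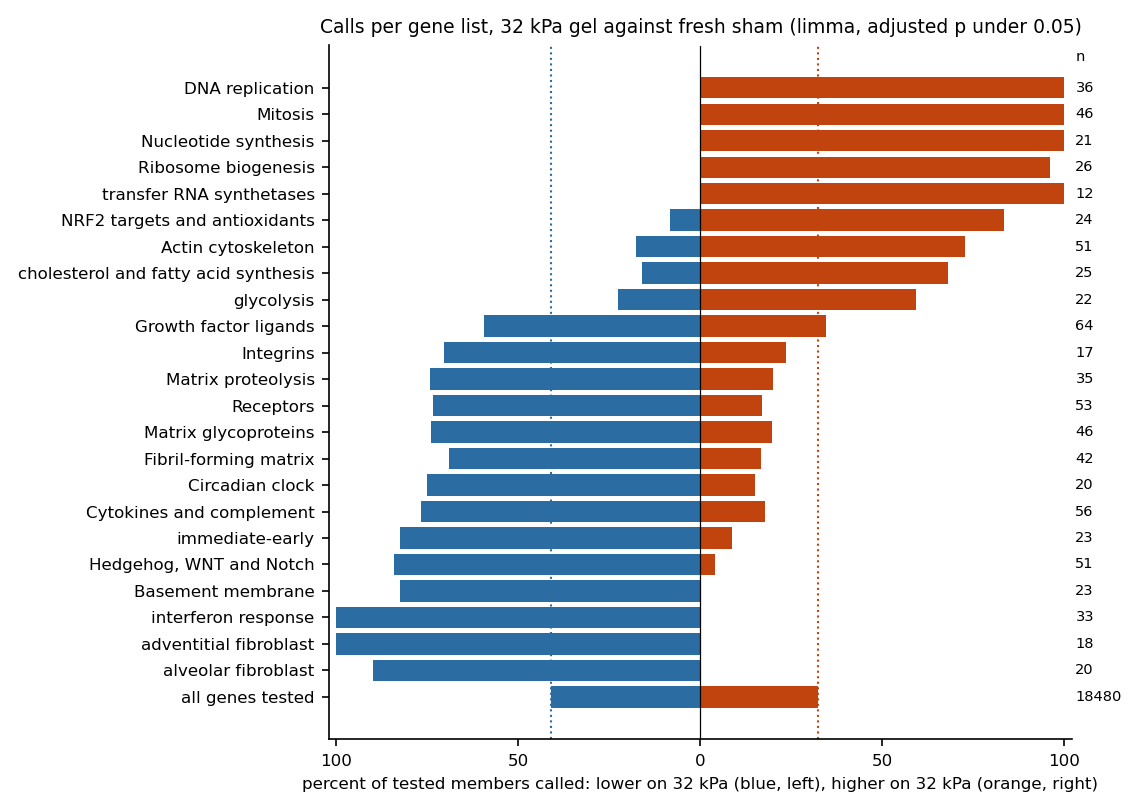
Share of tested members called higher (orange, right) or lower (blue, left) on 32 kPa for 23 lists and roles, with the number tested at the right edge and the shares over all 18480 tested genes (32.4% and 41.0%) as dotted lines. Where 1 role is drawn, other roles of its list are left out. Some moved otherwise, such as heat shock (10 of 13 higher) and glutathione transferases (6 of 16 higher, 8 lower). Replication, mitosis and nucleotide synthesis reach 100% higher, and adventitial markers and the interferon response reach 100% lower.

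The authors' deposited list of accessible regions for the same 2 conditions, made by ATAC-seq, which marks open chromatin, from 3 other libraries per group, was set beside the RNA. Regions are given as that list gives them, on mm10, with log2 read concentrations per group and the authors' FDR. It held 58510 regions with an FDR of at most 0.0499, of which 17328 were more accessible on 32 kPa and 41182 less accessible. At promoters the split was far wider. Of 13723 tested genes with a RefSeq promoter, 9737 had only less accessible regions there (overlap of at least 1 base), 102 only more accessible ones, 17 both and 3867 none listed. By its label the authors' list was cut by fold change as well as by FDR, so a promoter with none listed need not be unchanged. The sources used here do not give how the authors scaled the ATAC libraries.

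RNA of genes with a less accessible promoter moved in both directions. Of those 9737 genes, 39.4% were higher and 38.9% lower in RNA, with a median log2 difference of -0.01. Of the 102 with a more accessible promoter, 59.8% were higher and 16.7% lower, with a median of 1.68. Where no promoter region was listed, 16.6% were higher and 49.1% lower (median -1.29). For the mitosis list, 38 of 40 promoters had only less accessible regions, and every gene of the list rose in RNA. That class held 9737 of all 13723 promoters, so the count is not particular to mitosis. It also held 44 of 44 actin cytoskeleton promoters and 12 of 15 of basement membrane genes, but 1 of 10 of epithelial markers. At the Cdc20 promoter (chr4:118437200-118437699) the concentration was 8.90 in sham and 7.47 on 32 kPa, and at the Ube2c promoter (chr2:164769410-164770125) it was 9.89 and 7.64. For Fos and Inmt, which fell in RNA, it went from 11.5 to 6.98 (chr12:85473730-85474889) and from 7.61 to 3.75 (chr6:55174588-55175136). Steps at promoters of rising and falling genes were not compared as classes.

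Of the genes named in this text, Serpinb2, Mmp10, Prl2c3, Hmga2 and Ankrd1 had a more accessible promoter region, and RNA of each rose. These 5 were named for the size of their RNA change, so their rise is no separate result. Of all 102 genes with such a promoter, 16.7% were lower in RNA. The log2 concentration went from 2.26 to 6.50 at Serpinb2 (chr1:107511242-107511522), from 1.97 to 5.79 at Mmp10 (chr9:7502149-7502347) and from 2.74 to 4.91 at Prl2c3 (chr13:12800098-12800381). It went from 5.87 to 7.69 at Hmga2 (chr10:120476168-120476917) and from 6.75 to 7.84 at Ankrd1 (chr19:36119783-36120301). The AP-1 site TGANTCA was in 32 of the 102 more accessible promoters (31.4%), in 5.44% of the less accessible ones, in 10.7% of those with no listed region and in 7.16% of all. In the stretches shown for Serpinb2 and Mmp10 the match lies 94 and 63 bases before the start. This motif was looked at by class of promoter after the classes were seen, and a match is not a measured site. Other motifs were counted by class in the same way and are not given, so AP-1 was picked from several. In the list it was first set for, immediate-early and heat shock genes, it was in 0 of 33 promoters, against 7.16% of all.

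The place of 32 kPa replicate 3 bears on what can be said of the gel. Between 32 kPa and 0.2 kPa, limma called 0 of 18480 genes (0.0%), with 1010 at an unadjusted p under 0.05, edgeR called 1 and DESeq2 42. Without 32 kPa replicate 3, limma called 849 of 18532 (4.58%), 338 higher and 511 lower on 32 kPa. This fit was made after the distances between libraries were seen, so the place of replicate 3 among those genes describes the same pattern and does not test it. For the 849 genes, replicate 3 lay closer to the 0.2 kPa mean for 786 and closer to the mean of 32 kPa replicates 1 and 2 for 63. A median position of -0.18, on a scale with 0.2 kPa at 0 and 32 kPa replicates 1 and 2 at 1, placed it slightly beyond the soft gel. Transcript length moved with the same difference: from transcripts under 1000 bases to those of 8000 or more, the median difference of 0.2 kPa from 32 kPa replicates 1 and 2 ran from -0.42 to 0.16, as that of replicate 3 ran from -0.57 to 0.31. The part of length in the 849 calls was not tested.

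Some genes went against that pattern. Adamtsl2, a secreted relative of matrix proteases, stood at 0.0874, 0.247 and 0.239 CPM on 32 kPa and at 1.4, 1.26 and 1.55 CPM on 0.2 kPa, so that all 3 stiff libraries lay below all soft ones. Its stiff levels rest on few reads, only 3 in 32 kPa replicate 1. Spp1, osteopontin, stood at 24.9, 20.4 and 30.4 against 113, 85 and 61.8 CPM, and Ace, the angiotensin-converting enzyme, at 1.46, 2.17 and 3.11 against 6.4, 7.04 and 6.25 CPM, again with no overlap. These 3 were among the 5 genes with the lowest adjusted p in the fit of all libraries (0.0526, 0.0664 and 0.103), with Serpina3n (0.0559) and Cthrc1 (0.103), and all 5 were lower on the stiff gel. Against sham the steps were of another size: Adamtsl2 went from 217, 201 and 217 CPM in sham and Ace from 873, 647 and 694 CPM, whereas Spp1 rose from 3.1, 3.26 and 3.95 CPM (2.73 ± 0.21 (SE), adjusted p = 7.00e-07).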

How the data were processed

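RNA was measured in 3 libraries each of CD1 cells on 32 kPa, on 0.2 kPa and freshly sorted (sham). The authors' deposited table gives per gene a normalized signal, read counts divided by a factor per library; the tools named, without versions or roles, in the submitters' processing notes include HISAT2, featureCounts and DESeq2 for mm10. Whole reads were recovered from the steps of each column (100% of values whole within 0.05 of a read), giving 35858180 to 69524944 reads per library. Of 27178 rows, 855 had no symbol (2.13 to 4.77% of reads) and were left out, and 26 symbols turned into dates by a spreadsheet were restored. No sample column was left unmapped.

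The deposited signal was rescaled by a median-of-ratios factor per library, and limma 3.58.1 (R 4.3.3) with a trend was fitted to log2(value + 1) of 18480 genes with a mean of at least 1 over the 9 libraries, which share 1 estimate of the spread. Adjusted p-values are by Benjamini and Hochberg over all 18480 genes with a threshold of 0.05, and fold changes are on the log2(value + 1) scale of rescaled values, which understates those of low genes. edgeR 4.0.16 on the recovered reads called 5933 genes higher and 7327 lower of 18690, and DESeq2 1.42.0 was also run. Scripts were tested on simulated counts with few changed genes and no trend with length, a simpler setting than these data. The authors' deposited table has its own FDR (adjusted p-value), under 0.05 for 5569 genes higher on 32 kPa and 6847 higher in sham of 18234.

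Genes named are, by rule, the 12 with the largest rise and fall among called genes with groups that do not overlap and a mean of at least 100 in the higher group, and within each role the largest and most abundant called members, those against the majority and those that did not pass. Col1a1, Isg15, Ifit3, the sorting markers and some further members were named after their values were seen. Some genes that the rule names are not reported here. The members and lists were chosen with earlier results of these data known. Transcript lengths are those of the longest GENCODE transcript, matched by Ensembl identifier or else by symbol, for 98.3% of genes. Promoters are from RefSeq and matched by gene identifier. The authors' deposited ATAC list holds log2 read concentrations and FDR values, per the file headers, with regions on mm10. Alternatives were other pseudocounts, filters, scalings and tools, a replicate block, and each library left out; some were chosen after seeing the data. Counting intervals and floors cover counting error only.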

Additional observations from a re-analysis of the deposited data

How the results depend on the processing

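The counts of 5983 genes higher and 7580 lower against sham moved by less than 1.5 times under all 20 alternatives, 5661 to 6418 higher and 6392 to 7934 lower. With a library left out they ran from 5678 to 6080 and from 7021 to 7612. With scaling by total reads the split was 6418 higher and 7012 lower, and with values as deposited 5683 and 7934. Of 617 called genes named by the rule, 587 kept their call under every alternative, 30 lost it under at least 1 and 0 reversed; of 1800 list counts under alternatives 13 moved by more than 1.5 times. Depth limits what can be said of genes at or near 0 reads in a group.

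Genes differing between 32 kPa and 0.2 kPa numbered 0, and 1 with pseudocount 4, 2 with a mean of at least 10, 2 with values as deposited, 4 with scaling by total reads, 1 with edgeR, 5 with edgeR and total reads and 42 with DESeq2; the cause was not tested. With a library left out they ran from 0 to 849, the highest without 32 kPa replicate 3. The pseudocount of 4, the mean of 10, total reads and DESeq2 were chosen after seeing the data.

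With the replicate number as a block, 5851 genes were higher, 7434 lower and 0 differed between the gels. Same-numbered libraries of 32 kPa and sham had correlations of -0.10, 0.06 and 0.06 of their deviations from the group means. With so few libraries per group, such correlations cannot show whether same-numbered libraries were paired, and the labels do not say.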
